A study of Sus scrofa with 57 samples.

Results

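The biotin system of pig adipocytes was followed across RNA and DNA methylation through 8 genes, taken by their symbols out of the 25285 gene identifiers in the expression tables. They are the biotin ligase HLCS, the biotin-recycling enzyme BTD, and the biotin-dependent carboxylases or carboxylase subunits PC, PCCA, PCCB, MCCC1, MCCC2 and ACACB. The tables named 6 of them, while BTD and PCCA carried only an identifier and were matched through a reference list of gene names. The samples were mature adipocytes, floated out of collagenase-digested retroperitoneal fat of crossbred pigs. The animals descended from Göttingen minipigs, which are prone to obesity, crossed with lean Duroc pigs, and were second-generation intercrosses chosen as lean or obese extremes of 1 large population. All were housed alike with free access to feed, received no treatment, and were slaughtered at several months to about a year of age. RNAseq covered 5 lean and 5 obese males, with obese pig-572 sequenced in a pair of libraries that were averaged. Methylated DNA capture (mDNAcap), which pulls down methylated fragments and counts their reads, and reduced representation bisulfite sequencing (RRBS), which reads the methylated share of single CpGs, were each labelled with 10 lean and 13 obese pigs of both sexes. In the mDNAcap comparison, pig-411, labelled obese, stood among the lean animals and pig-584 was absent, which leaves 11 libraries in each group. The mDNAcap groups were used as given there, with no library left out and no split by sex. The group sizes stated by the study hold a lean pig more and an obese pig fewer than the labels, and in which group pig-411 entered the RRBS means is not given in the sources used here.

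Biotin is a vitamin that serves as a cofactor of carboxylases once it is bound to them covalently. HLCS, holocarboxylase synthetase, attaches it to a lysine of each carboxylase, and BTD, biotinidase, frees it again once these proteins are degraded. In adipocytes the carboxylases feed oxaloacetate to the export of acetyl units for lipogenesis (PC), make malonyl-CoA (the acetyl-CoA carboxylases), and take part in the breakdown of branched-chain amino acids (the propionyl-CoA and methylcrotonyl-CoA carboxylases).

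The samples had RNA of the adipocyte markers that could be found, and also of fibroblast markers. Of 10 adipocyte markers, 5 had a symbol in the tables, and their summed level ran from 890 to 980 FPKM (fragments per kilobase of transcript scaled to the mapped fragments of the library) in lean and from 926 to 1094 FPKM in obese pigs. The 8 macrophage and leukocyte markers summed to 3.24 to 6.38 FPKM in lean and 3.47 to 6.86 FPKM in obese pigs, with CD163 below 0.1. The 5 endothelial markers summed to 1.47 to 13.1 in lean and 3.45 to 9.45 in obese pigs, the 5 smooth muscle and pericyte markers to 4.59 to 11.52 and 8.10 to 12.7 with CNN1 and MYH11 below 0.1, the 4 mesothelial markers to at most 0.162 and 0.190 with UPK3B, MSLN and KRT8 below 0.1, and the 3 red blood cell markers to 15.5 to 99.1 and 20.4 to 51.4. The 8 fibroblast and preadipocyte markers summed to 229 to 726 FPKM in lean and 257 to 624 FPKM in obese pigs, with DPP4 below 0.1. The highest of them, COL3A1, had a mean of 396 FPKM, against 332 FPKM for GPD1, the highest adipocyte marker found. Symbols were not found for ADIPOQ, CIDEC, FABP4, PNPLA2 and LPL, so GPD1 need not be the highest adipocyte marker of the samples. Genes of the stress of tissue dissociation differed more, with sums of 374 to 1279 FPKM in lean against 143 to 576.6 FPKM in obese pigs, and 4 of the 6 tested had an unadjusted p-value under 0.05, none of them higher in obese pigs, beside 20.8% of all genes tested (10.2% lower in obese pigs). The part of these genes in the results below was not tested. In bulk RNA, fewer cells of a type and less RNA per cell cannot be told apart.

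The level of RNA differed widely between the members. FPKM is scaled by the length of the annotated transcript, and values here were also divided by a size factor per library. Levels of different genes can be set side by side only as far as their annotated models are complete. The annotated loci of PC and PCCA span only 4849 and 42777 bases. PC, pyruvate carboxylase, was the highest with a mean of 236 FPKM over the 10 pigs, higher than 96.7% of the 10246 genes tested. PCCB followed at 65.4, MCCC2 at 48.5, HLCS at 35.5, MCCC1 at 32.2, PCCA at 12.8 and BTD at 1.92 FPKM. PC stood above PCCB in 10 of 10 pigs with no overlap of their ranges, and the same held for MCCC1 above PCCA and for PCCA above BTD. The ranges of the neighbours between them overlapped. PCCB was above MCCC2 in 8 of 10 pigs, MCCC2 above HLCS in 8 and HLCS above MCCC1 in 7. PCCB was above both HLCS and MCCC1 in 10 of 10 pigs. ACACB, the acetyl-CoA carboxylase of the mitochondrial surface whose malonyl-CoA restrains fatty acid oxidation, was listed at 0 in 3 of 11 libraries and reached at most 0.0276 FPKM as deposited. It was far below the mean of 1 FPKM required for testing, and no fold change is given for it. Of all genes, 59.7% had a mean scaled level below 1 FPKM.

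**Figure D1:**
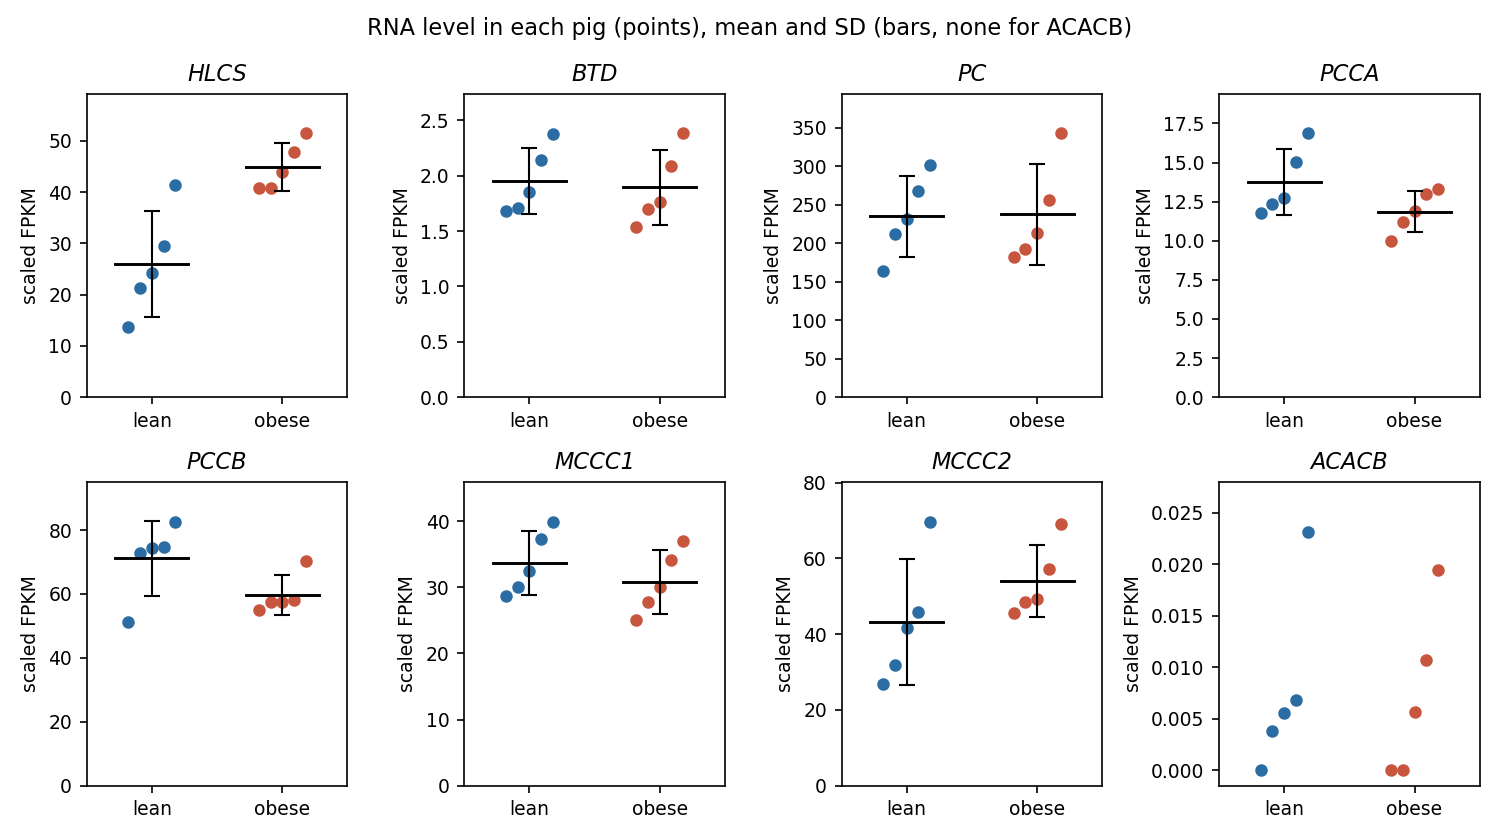
Scaled FPKM (vertical axes, a separate scale for each gene) of the 8 members in 5 lean and 5 obese pigs. Each point is a pig, drawn in rising order within its group, and the bars give the mean and SD except for ACACB. HLCS lies between 40.8 and 51.5 in obese pigs, above 4 of the lean pigs, and lean pig-402 lies at 41.4.

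HLCS was the member with the largest difference between the groups. In lean pigs its level was 13.6 FPKM in pig-413, 21.3 in pig-577, 24.3 in pig-407, 29.5 in pig-525 and 41.4 in pig-402. In obese pigs it was 40.8 in pig-473, 40.8 in pig-529, 43.9 in pig-433, 47.8 in pig-572 and 51.5 in pig-524. The groups met only in lean pig-402, which was above 2 obese pigs, whereas all 5 obese pigs exceeded each of the other 4 lean pigs. The means were 26.0 ± 10.4 FPKM in lean and 45.0 ± 4.66 FPKM in obese pigs (SD, n = 5 each), and the spread relative to the mean was 39.8% in lean against 10.4% in obese pigs. The log2 fold change, obese minus lean, was 0.85 with a standard error of 0.24, that is 1.80-fold (95% interval 1.24 to 2.60). It had an unadjusted limma p-value of 0.0051 and an exact two-sided permutation p-value of 0.0238 over 252 splits of the pigs, where the smallest possible is 0.00794. Adjusted over all 10246 genes tested, the limma p-value was 0.137, so HLCS did not pass the threshold of 0.05. It was the 383rd gene in the order of p-values, and 4.27% of the genes tested had a log2 fold change of at least this size in either direction.

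Whether HLCS passed the threshold depended on lean pig-402, whereas its mean log2 level was higher in obese pigs whichever pig was left out. Without pig-402 the log2 fold change of HLCS was 1.03 with a limma adjusted p-value of 0.0455, and leaving out any of the other 9 pigs gave 0.65 to 0.91 with adjusted p-values above the threshold. Leaving out pig-402 also raised the number of genes with a limma adjusted p-value under 0.05 from 1 to 162 across the transcriptome.

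BTD did not follow HLCS. Its RNA was at 1.68 in pig-407, 1.71 in pig-525, 1.85 in pig-577, 2.14 in pig-413 and 2.38 FPKM in pig-402 among lean pigs, and at 1.53 in pig-572, 1.70 in pig-473, 1.76 in pig-433, 2.09 in pig-529 and 2.39 FPKM in pig-524 among obese pigs. Both groups covered the same range, and the log2 fold change was −0.03 (95% interval −0.26 to 0.20, limma adjusted p = 0.886). The confidence bounds of cufflinks had a half-width of 12.1% to 20.04% of the level for BTD and 11.3% to 17.05% for PCCA, against 1.33% to 2.94% for HLCS.

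PC converts pyruvate to oxaloacetate. It lay between 164 and 301 FPKM in lean pigs, from pig-525 up to pig-407, and between 183 and 343 FPKM in obese pigs, from pig-473 up to pig-433. The means were 235 ± 52.6 and 237 ± 65.3 FPKM (SD, n = 5 each), and the log2 fold change was 0.01 (95% interval −0.48 to 0.49, limma adjusted p = 0.99). The interval allows neither a change as large as the estimate for HLCS nor one as large in the other direction. The annotated PC locus is only 4849 bases long. The neighbouring unnamed gene ENSSSCG00000012925, 18940 bases before it, had a level of 0.87 to 1.02 times that of PC in every pig, with a log2 fold change of 0.08 (limma adjusted p = 0.856).

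The 2 subunits of propionyl-CoA carboxylase, which carboxylates propionyl-CoA from valine, isoleucine and odd-chain fatty acids, both had lower means in obese pigs, but neither passed the test. The biotin-carrying subunit PCCA was at 11.8 to 16.9 FPKM in lean and 10.01 to 13.3 FPKM in obese pigs, with a log2 fold change of −0.19 (95% interval −0.45 to 0.07, limma adjusted p = 0.371). PCCB was at 51.2 in pig-525, 72.9 in pig-402, 74.4 in pig-407, 74.7 in pig-413 and 82.7 FPKM in pig-577 among lean pigs. Among obese pigs it was at 55.0 in pig-572, 57.4 in pig-473, 57.4 in pig-524, 58.1 in pig-433 and 70.4 FPKM in pig-529. All obese pigs were thus below 4 of the 5 lean pigs, with pig-525 as the low exception. The log2 fold change was −0.24 (95% interval −0.55 to 0.08, limma adjusted p = 0.358). PCCB exceeded PCCA 4.14-fold to 7.04-fold, with means of 5.22 ± 0.870 in lean and 5.12 ± 1.10 in obese pigs (SD, n = 5 each). The PCCA model spans only 42777 bases.

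The subunits of methylcrotonyl-CoA carboxylase, an enzyme of leucine breakdown, went apart in their means, and neither passed the test. MCCC1, which carries the biotin, was at 28.7 to 39.9 FPKM in lean and 25.0 to 37.0 FPKM in obese pigs, with a log2 fold change of −0.13 (95% interval −0.43 to 0.18, limma adjusted p = 0.614). MCCC2 was at 26.9 in pig-525, 31.8 in pig-413, 41.5 in pig-402, 45.8 in pig-577 and 69.7 FPKM in pig-407 among lean pigs. Among obese pigs it was at 45.5 in pig-473, 48.6 in pig-529, 49.2 in pig-524, 57.3 in pig-572 and 69.0 FPKM in pig-433. Of the lean pigs, 3 were below all obese pigs, 1 was above them and 1 was between. The log2 fold change was 0.38 (95% interval −0.15 to 0.90, limma adjusted p = 0.379). The ratio of MCCC2 to MCCC1 was 1.28 ± 0.491 in lean and 1.80 ± 0.442 in obese pigs (SD, n = 5 each), with overlapping ranges. The unnamed gene ENSSSCG00000021154 lies within the MCCC2 locus at 0.70 to 0.83 times the level of MCCC2 in every pig, and how cufflinks divided reads between the overlapping models is not given in the sources used here, so the level of MCCC2 is uncertain.

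**Figure D2:**
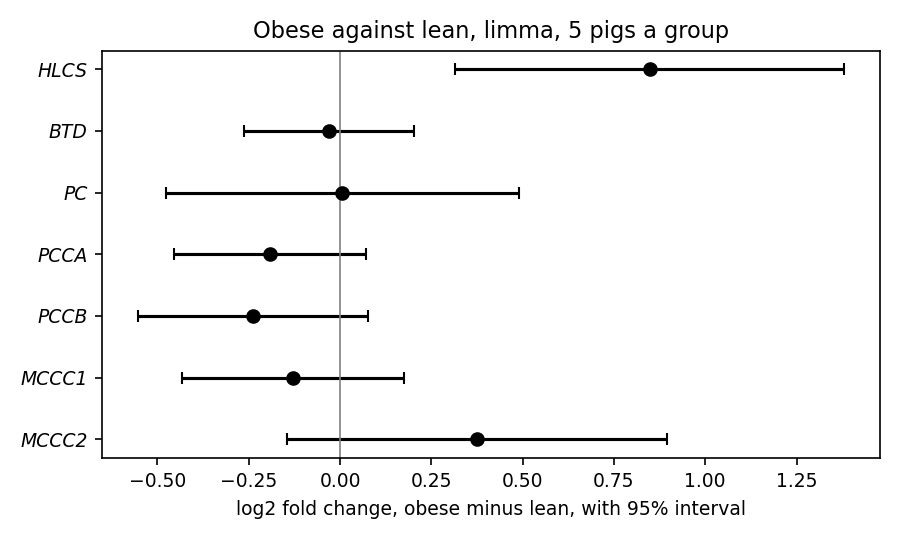
Log2 fold change, obese minus lean (horizontal axis), of the 7 members tested with limma. Points are estimates over 5 pigs a group and bars the 95% intervals. Only the interval of HLCS, 0.31 to 1.38, lies away from 0.

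Of the 7 members tested, none passed the adjusted threshold, against 1 gene among all 10246 tested (0.00976%). With an unadjusted limma p-value under 0.05 there was 1 member, HLCS, where the background was 20.8% of the genes. The median log2 fold change of the 7 members was −0.03, with 3 above 0 and 4 below, beside a median of −0.0013 over all genes tested. None of the 7 had groups that did not overlap, a pattern found in 4.13% of the genes tested.

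The level of HLCS relative to its substrate enzymes separated the groups for 3 of the 5 and overlapped for PC and MCCC2. The ratio of HLCS to PCCA was 1.07 to 2.76 in lean and 3.39 to 4.26 in obese pigs, without overlap. The ratio to PCCB was 0.182 to 0.577 in lean and 0.579 to 0.898 in obese pigs, where lean pig-525 and obese pig-529 nearly touched. The ratio to MCCC1 was 0.453 to 1.11 in lean and 1.19 to 1.72 in obese pigs. The ratios to PC, with 0.0588 to 0.195 in lean and 0.128 to 0.268 in obese pigs, and to MCCC2, with 0.348 to 1.10 and 0.637 to 1.05, overlapped. Among the ratios of HLCS to each of the 10245 other genes tested, 16.1% separated the groups. These ratios were looked at after the levels were known, share the values of HLCS and carry no test.

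Across the 10 pigs, HLCS RNA was not shown to track the RNA of its substrate enzymes. Pearson's r of the log2 levels was −0.17 with PC, −0.27 with PCCA, −0.60 with PCCB, −0.08 with MCCC1, 0.41 with MCCC2 and 0.02 with BTD. Spearman's rho was −0.18, −0.05, −0.58, −0.16, 0.42 and 0.10 in the same order. The negative relation with PCCB had the smallest permutation p-value, 0.0692 for r and 0.0895 for rho, which became 0.554 and 0.703 after Benjamini-Hochberg adjustment over the family of 8 relations. Without pig-413 and pig-577, the ones farthest from the median of HLCS, its r was −0.30. Without 1 pig at a time it ran from −0.75 to −0.51. Within the 5 obese pigs alone it was −0.55, and within the lean pigs alone −0.33. Without size factors the r over all pigs was −0.29. The other 5 relations of HLCS had adjusted permutation p-values of 0.681 to 0.955 for r and 0.703 to 0.892 for rho, and r without the same 2 pigs was −0.13 with PC, 0.14 with PCCA, 0.11 with MCCC1, 0.11 with MCCC2 and 0.38 with BTD.

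The group difference of HLCS enters these values, so the group means were also subtracted. The centred r was −0.27 with PC, 0.21 with PCCA, −0.34 with PCCB, 0.27 with MCCC1, 0.10 with MCCC2 and 0.16 with BTD, and exact permutation within groups gave adjusted p-values of 0.845 to 0.886. On FPKM as deposited, without size factors, the centred r was higher with PCCA (0.56), MCCC1 (0.58) and BTD (0.53), with exact permutation p-values adjusted to 0.214, 0.08 and 0.214. For comparison, 90% of the other genes tested fell between −0.84 and 0.82 in their r with HLCS over the same pigs, and between −0.76 and 0.75 in the centred r. The subunits of a shared enzyme did not vary closely together either. Between PCCA and PCCB r was 0.40 and rho 0.39 (adjusted permutation p = 0.681 and 0.703), and 0.36 without pig-529 and pig-577, but 0.07 without pig-577 alone and 0.62 without pig-529 alone. Between MCCC1 and MCCC2 r was 0.02 and rho −0.13 (adjusted permutation p = 0.955 and 0.892), and 0.08 without the same pigs. These last 2 pairs were added after the levels were known.

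**Figure D3:**
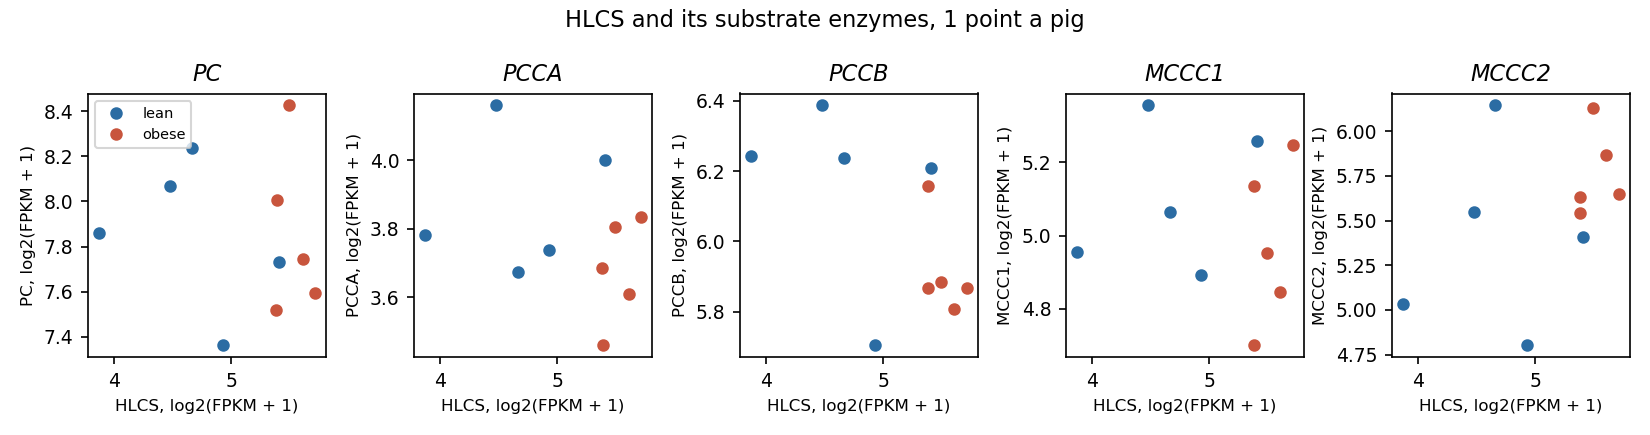
Level of HLCS (horizontal axes, log2 of scaled FPKM + 1) against each of 5 carboxylase genes (vertical axes, the same unit), 1 point a pig. Obese pigs sit to the right for HLCS, and the only pooled r beyond 0.5 in size is that with PCCB, −0.60.

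The genes most like HLCS across the pigs were KLHL31 (r = 0.98), ABCB6 (0.98), DNAJC3 (0.98), CDKN1A (0.98) and SNX19 (0.97), all over 10 pigs and given as a description. KLHL31 is a kelch-like protein, ABCB6 a porphyrin transporter, DNAJC3 a cochaperone of the endoplasmic reticulum, CDKN1A the cell cycle inhibitor p21 and SNX19 a sorting nexin. Their r stayed between 0.94 and 0.98 after the group means were subtracted. CDKN1A was at 38.2 ± 18.2 FPKM in lean and 72.0 ± 18.3 FPKM in obese pigs (SD, n = 5 each), with a log2 fold change of 1.02 and a limma adjusted p-value of 0.174. The other 4 had limma adjusted p-values of 0.141 to 0.2.

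The genes around the biotin enzymes gave no call at the adjusted threshold in any of the lists. Of the 4 transporters listed for biotin supply 2 were tested, both with lower means in obese pigs. SLC5A6, the sodium-dependent vitamin carrier that brings biotin into cells, was at 33.5 ± 6.18 FPKM in lean and 25.7 ± 8.23 FPKM in obese pigs (SD, n = 5 each), with a log2 fold change of −0.41 (limma adjusted p = 0.311). The thiamine carrier SLC19A2 had a log2 fold change of −0.44 (adjusted p = 0.325). ACACA, the cytosolic acetyl-CoA carboxylase of lipogenesis, has 2 identifiers, the second with a locus of only 225 bases. The longer was at 184 ± 71.8 FPKM in lean and 207 ± 28.8 FPKM in obese pigs (SD, n = 5 each), with a log2 fold change of 0.26 (95% interval −0.37 to 0.89, limma adjusted p = 0.618), and the shorter had one of 0.37 (adjusted p = 0.544). The cytosolic form of the enzyme was thus well expressed where ACACB was near 0.

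Among the 25 tested identifiers of pyruvate use, 1 was higher and 4 were lower in obese pigs at an unadjusted limma p-value under 0.05, beside a background of 10.6% higher and 10.2% lower. LDHB was counted among the lower under more than 1 identifier, with log2 fold changes of −0.68 and −0.67. The median log2 fold change over all identifiers of this list was −0.03. PDK4, the kinase that shuts pyruvate out of the pyruvate dehydrogenase complex, had the lowest value, with 101 to 559 FPKM in lean and 4.99 to 149 FPKM in obese pigs and a log2 fold change of −2.29 (adjusted p = 0.183). The malic enzyme ME1 had the highest, 0.51 (adjusted p = 0.552).

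In propionyl-CoA breakdown, 2 of 13 were higher and 2 lower at the unadjusted threshold, with a median of −0.06. MMAB, which makes the cobalamin cofactor of methylmalonyl-CoA mutase, had a log2 fold change of 0.60 (limma adjusted p = 0.176). SUCLA2, a subunit of succinyl-CoA ligase, had one of −0.49 (adjusted p = 0.201).

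In branched-chain amino acid breakdown, 1 of 17 was higher and 2 were lower, with a median of 0.03. BCKDHB, of the branched-chain ketoacid dehydrogenase, was highest with a log2 fold change of 0.41 (limma adjusted p = 0.233). HADHA, of the mitochondrial trifunctional protein, was lowest, at 40.8 to 77.6 FPKM in lean and 27.6 to 39.7 FPKM in obese pigs without overlap, with a log2 fold change of −0.67 (adjusted p = 0.12).

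In the list of malonyl-CoA and fatty acid oxidation, 2 of 20 were higher and 2 lower, with a median of 0.03. ACSF3, the mitochondrial malonyl-CoA synthetase, had a log2 fold change of 0.77 (limma adjusted p = 0.126). PRKAG1, a regulatory subunit of the AMP-activated kinase that inhibits acetyl-CoA carboxylases, had one of −0.57 (adjusted p = 0.112).

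Differential regions of the captured DNA lay at 3 of the 8 loci. Within 50000 bases there were 5 such regions, 3 at HLCS, 1 at PCCA and 1 at MCCC2, and none at BTD, PC, PCCB, MCCC1 or ACACB. Across all 25285 gene loci, 28.4% had at least 1 region as near and 8.73% had 1 inside. All positions refer to Sscrofa10.2. The table holds only regions already chosen as differing between these animals, and limma gave 96.2% of its 7401 regions an adjusted p-value under 0.05, 69% lower and 27.1% higher in obese pigs. The balance depended on the scaling, with 5109 regions lower and 2009 higher as deposited, 807 lower and 2125 higher after median-of-ratios scaling, and 1096 lower and 2093 higher after scaling by the mean read count per bin. The p-values given for the 5 regions therefore describe their size over animals and are no independent evidence.

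HLCS lies at chr13:210481700-210676682 and is transcribed towards the lower coordinates in the study's annotation. The largest difference was in a region 30519 bases beyond the 5′ end of the locus (chr13:210707201-210708200), between genes. Its normalized read count ran from 10.1 over a median of 13.2 to 21.3 in 11 lean values, and from 0 over 7.20 to 17.3 in 11 obese values. As many as 9 of the obese values were below all lean values. The mean in obese pigs was 0.494 times that in lean pigs, with a log2 fold change of −1.20 ± 0.34 (SE, limma adjusted p = 0.0085).

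The other 2 regions, both inside the HLCS locus, went in opposite directions. The far edge of the first (chr13:210643501-210644500) is 33181 bases from the 5′ end. Its counts ran from 9.30 over a median of 13.1 to 31.6 in lean and from 2.24 over 8.27 to 14.3 in obese values. Of the obese values, 6 were below all lean ones. The log2 fold change of this region was −0.77 ± 0.26 (SE, limma adjusted p = 0.0108). The far edge of the second (chr13:210659801-210661000) is 16881 bases from the 5′ end. Its counts ran from 10.1 over 17.5 to 25.8 in lean and from 18.4 over 28.3 to 38.1 in obese values. All 11 obese values were above the lean median and 6 were above all lean values, and the log2 fold change was 0.61 ± 0.16 (SE, limma adjusted p = 0.0085).

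The PCCA region (chr11:76361701-76362800), inside the locus, ran from 10.5 over a median of 20.5 to 26.2 in lean and from 4.95 over 11.2 to 18.4 in obese values. All 11 obese values were below the lean median. Its log2 fold change was −0.66 ± 0.21 (SE, limma adjusted p = 0.0088). The MCCC2 region (chr16:51928901-51930000), also inside, ran from 9.38 over 15.0 to 19.1 in lean and from 3.36 over 8.25 to 18.1 in obese values, of which 7 were below all lean values. Its log2 fold change was −0.79 ± 0.22 (SE, limma adjusted p = 0.0085).

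The groups overlapped in each of the 5 regions, and no overlap was seen in 0.149% of all regions. The values rest on few reads, with group medians of 8 to 32 reads in a region, and 1 obese library had none in the region beyond the 5′ end of HLCS. With scaling by the median of ratios, HLCS kept a limma adjusted p-value under 0.05 at the 5′ flank (0.0247) and at the region with the higher obese level (0.00116). The first inside region (0.0905), PCCA (0.102) and MCCC2 (0.051) lost it. The factors of that scaling came only from regions already chosen as differing, most of them lower in obese pigs. They moved all 5 log2 fold changes upwards, so keeping or losing the threshold is no independent check of a region.

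**Figure D4:**
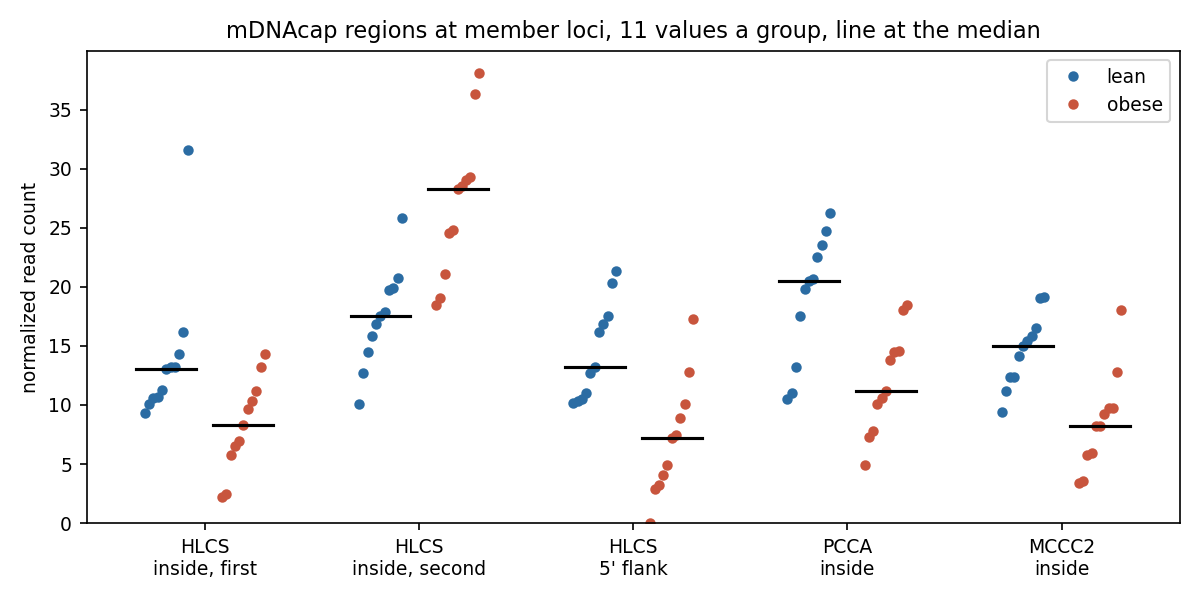
Normalized read count (vertical axis) in the 5 mDNAcap regions at HLCS, PCCA and MCCC2, with 11 lean and 11 obese values each (points in rising order) and a line at the median. Obese medians are lower in 4 regions and higher, 28.3 against 17.5, in the second region inside HLCS.

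In RRBS, regions covered in 3 or more pigs per group lay near 2 of the 8 loci, 4 at HLCS and 2 at PC, all of them outside the loci. Across all gene loci 16.1% had at least 1 such region within 50000 bases. Only group means are deposited, and only for regions that differ by at least 10 points, so the values have no error over pigs and no test was made. The study required a minimum number of reads to call methylation, but the read depth of single regions is not given. All 6 regions had more methylation in obese pigs, as had 61.1% of the 2416 regions of the table.

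The HLCS regions lay beyond its 3′ end, on the side of the neighbouring gene SIM2 (chr13:210439982-210478671). SIM2 is a transcription factor whose RNA reached at most 0.0365 FPKM in these adipocytes. Each of these regions lies inside SIM2 or nearer to SIM2 than to HLCS. The region 2625 bases away (chr13:210478965-210479075, 10 CpGs) had 26.6% methylation in lean and 38.2% in obese pigs. It was also the single member region in the table that required 5 pigs of each group, at 27.9% and 39.1%, a table that places a region near 5.01% of gene loci. The region 3444 bases away (chr13:210478136-210478256, 10 CpGs) lies inside SIM2 and had 1.61% in lean and 14.8% in obese pigs. The 2 farthest, 42767 bases (chr13:210438896-210438933) and 42494 bases away (chr13:210439011-210439206), had 11.2% against 24.4% and 11.1% against 31.0%, the latter with a difference of 19.9 points over 20 CpGs, close to the 90th percentile of 20.8 points in the table.

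The region inside SIM2 was nearly free of methylation in lean pigs. A stretch of 30 bases of it is shown to give the CpGs that such a value averages, with each CG in capitals (Sscrofa10.2, chr13:210478170-210478199, as the study's supplementary table gives it).
HLCS 3′ CpG site: tggcaatgtccctttCGtccctCGCGCGgg
The stretch holds 4 of the CpGs and is 66.7% G or C.

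The 2 regions near PC had 18.9% in lean against 33.9% in obese pigs at 19012 bases (chr2:4585662-4585871, 12 CpGs) and 18.3% against 29.3% at 14899 bases (chr2:4589842-4589984, 10 CpGs). The first overlaps the end of ENSSSCG00000012925, the unnamed gene with nearly the same level as PC. The RNA of PC and of that gene did not differ detectably between the groups, as given above.

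**Figure D5:**
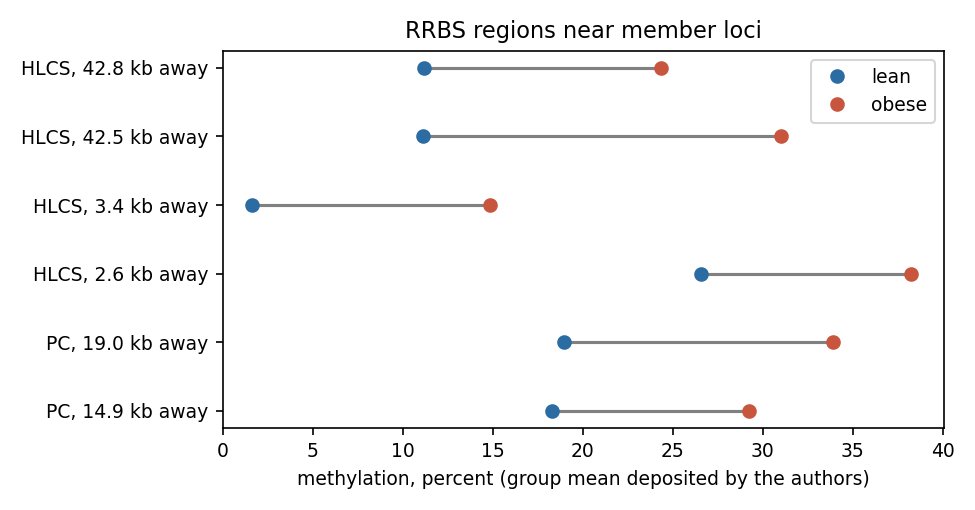
Mean methylation in percent (horizontal axis) of lean and obese pigs in the 6 RRBS regions near HLCS and PC, labelled by their distance from the locus, each pair joined by a line. The obese mean is higher in all 6, by 10.98 to 19.9 points.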

How the data were processed

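Tables of RNAseq, mDNAcap and RRBS of adipocytes of lean and obese pigs were used as deposited. The authors mapped RNAseq reads to Sscrofa10.2 with STAR 2.3.1 and estimated FPKM with cufflinks 2.2.0. The deposited mDNAcap value is a normalized count, the reads of a region divided by a constant per library, and its group signal, per the file headers, is the mean of these. The deposited RRBS value is a fraction, the authors' group mean (bismark 0.10, then metilene), shown here as percent. The authors' fold changes, p-values, cuffdiff comparison and clusters of regions were not used.

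Names came from the tables and, for 1157 genes, from a reference list. FPKM was divided by median-of-ratios size factors (0.691 to 1.23). The 10246 genes with a mean deposited FPKM of at least 1 were tested with limma 3.58.1 (eBayes with trend, R 4.3.3) and Benjamini-Hochberg adjustment. The tested value was log2(scaled FPKM + 1). Fold changes on this scale understate changes of low genes. Number and depth of reads are not kept in FPKM. P-values measure the spread between pigs. Permutations used numpy 2.4.6, 100000 for correlations and all 14400 within groups. mDNAcap was tested likewise over 7401 regions. The code was tested on simulated data. Pig-572's second library is described under another number. Its members' scaled levels differed by 1.51% to 9.01% from the first.

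The members, gene lists and rules were chosen with earlier results of these data known. Named are all members, the highest and lowest gene of each list, ACACA, SLC5A6, the 5 genes most correlated with HLCS, and every region within 50000 bases. Marker lists were adipocyte, macrophage and leukocyte, endothelial, fibroblast, smooth muscle, mesothelial, red blood cell and dissociation stress. Alternatives were other scalings, pseudocounts, filters, distances and each pig left out.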

Additional observations from a re-analysis of the deposited data

Results flagged for a closer look

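PCCB in obese pigs was the only case where the highest or lowest pig of a group stood apart. Pig-529, with 70.4 FPKM, was separated from the next pig, with 58.1 FPKM, by 0.797 of the range of the 5 obese pigs, past Dixon's critical value of 0.71. Of the 14 groups looked at, chance alone would flag about 1 in 20.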

How the results depend on the processing

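No paired analysis was possible because lean and obese pigs share no animal and their numbers name single pigs. The direction of HLCS, PCCA, PCCB, MCCC1 and MCCC2 RNA held in all settings, and without 1 pig the log2 fold change of HLCS ran from 0.65 to 1.03, past the threshold only without lean pig-402 (the count of members past it ran from 0 to 1). Without 1 pig the others ran from 0.23 (pig-525) to 0.56 (pig-407) for MCCC2, from −0.20 (pig-524) to −0.06 (pig-529) for MCCC1, from −0.24 (pig-407) to −0.12 (pig-577) for PCCA and from −0.35 (pig-525) to −0.18 (pig-577) for PCCB. BTD (−0.089 to 0.020 without 1 pig) and PC (−0.14 to 0.10) changed sign. PC was also −0.0053 with the first library of pig-572, −0.0135 with its libraries as separate replicates and −0.0137 without size factors. Without size factors r turned for HLCS with PCCA (0.088), HLCS with MCCC1 (0.24) and MCCC1 with MCCC2 (−0.033), and the centred r for HLCS with PCCB (0.12). The centred r of HLCS was higher there with PCCA, MCCC1 and BTD, to at most 0.58. Without 1 pig, r ran from −0.41 to −0.08 for HLCS with PC, from −0.38 to −0.02 for HLCS with PCCA, from 0.14 to 0.62 for HLCS with MCCC2, from 0.07 to 0.62 for PCCA with PCCB, from −0.21 to 0.32 for HLCS with BTD (centred −0.33 to 0.54), from −0.27 to 0.15 for HLCS with MCCC1 and from −0.18 to 0.11 for MCCC1 with MCCC2 (centred −0.036 to 0.40), and the centred r from −0.28 to 0.31 for HLCS with MCCC2 and from −0.15 to 0.51 for PCCA with PCCB. None of these passed the threshold. Over all genes, 0 (without size factors) to 177 (pig-572's libraries as separate replicates) passed limma's adjusted threshold. For mDNAcap, the factors of median-of-ratios scaling came only from the chosen regions. That scaling gave −0.48 for the first region inside HLCS, −0.36 for PCCA and −0.50 for MCCC2, none of them past the threshold. Scaling by the mean read count per bin, chosen after seeing the data, gave −0.50 for that HLCS region and −0.38 for PCCA, also not past it, whereas MCCC2 stayed past it (−0.53, limma adjusted p = 0.0359). The second region inside HLCS went from 0.61 to 0.92 and 0.90 under these scalings, and the one at its 5′ flank from −1.20 to −0.93 and −0.96, each past the threshold. Over all mDNAcap regions the calls went from 5109 lower and 2009 higher to 807 and 2125 and to 1096 and 2093. RRBS regions numbered 0 inside the loci, 2 within 10000 bases and 1 with 5 pigs a group, against 6. The causes were not tested.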
